A study of Mus musculus with 8 samples.

Results

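Macrophages settle in the limb bud from fetal blood during midgestation, and colony stimulating factor signalling through the receptor Csf1r keeps them alive. Those that lie around vessels and in loose connective tissue carry the mannose receptor Mrc1 and the hyaluronan receptor Lyve1, take up debris and dying cells, and also express the platelet factor Pf4 and the coagulation factor F13a1. The 8 genes described here, Mrc1, Pf4, Csf1r, Laptm5, Cd36, Lyve1, Fcrls and F13a1, were picked by name as genes of fetal macrophages. All 8 were found among the 739 distinct genes of the 4 deposited tables, and their reads were taken in all 8 libraries.

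The libraries came from limb buds of C57BL/6 mouse fetuses at embryonic day E13.5. In Sox9+/Y440X-IRES-EGFP fetuses (Y440X) 1 Sox9 allele carries the Y440X mutation of campomelic dysplasia, a skeletal disorder, together with an IRES-EGFP reporter. In Sox9+/IRES-EGFP fetuses (WT) the reporter sits on an otherwise normal Sox9 allele, so both genotypes carry it. Dissociated buds were sorted by fluorescence into GFP-positive cells, which transcribe the tagged Sox9 allele of the cartilage lineage, and GFP-negative cells, which are the rest of the bud. The 4 groups are Y440X GFP-positive, WT GFP-positive, Y440X GFP-negative and WT GFP-negative, with 1 forelimb and 1 hindlimb library each, taken by the study as the 2 replicates of a group. Each library held pooled buds, so the spread between the 2 libraries of a group mixes limb with pool. Because the libraries are bulk samples, fewer macrophages and less RNA of a gene per macrophage cannot be told apart.

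The tables hold genes that the authors called different between genotypes in at least 1 of the fractions, and this sets what can be tested. All 8 genes are listed as lower in Y440X GFP-negative cells, so that difference is given as a description. In GFP-positive cells the authors list Laptm5 and F13a1 as lower and Fcrls as higher, and the other 5 genes were not chosen on that fraction. The ratio of the fractions within a genotype chose none of them. It uses the GFP-negative levels on which they were listed, though, so it is not independent of the listing either.

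The effective sizes of the 8 libraries spanned 38601000 to 51081000 reads. The sort separated cartilage RNA: 18 of 19 genes of a cartilage list were in the tables and all 18 were higher in GFP-positive than in GFP-negative cells of both genotypes. Of all 739 genes, 30.4% were called higher in GFP-positive cells in WT and 28.3% in Y440X. Genes of other cell types and states also differed between genotypes in the libraries the macrophage genes were read from. The sums below cover only list genes found in the tables. In GFP-negative cells the authors listed 14 of the 16 endothelial, 9 cartilage and the 2 Y-linked genes as lower. They listed the 9 neutrophil, 3 heat shock and 2 erythroid genes as higher there. In GFP-positive cells they listed 14 cartilage and the 2 Y-linked genes as lower, and the 3 heat shock and 3 endothelial genes as higher. These directions were fixed by that listing and are a description, and list genes outside the tables have no value here. Summed over 16 endothelial genes of a list of 36, the level was 142 and 148 CPM (counts per 1e+06 reads) in Y440X GFP-negative cells, against 333 and 324 CPM in WT GFP-negative cells. Summed over 9 neutrophil genes of 18, it was 17.7 and 24.3 CPM in Y440X GFP-negative cells, against 2.09 and 2.11 CPM in WT GFP-negative cells. The 3 heat shock genes found of 11 summed to 434 and 536 CPM in Y440X, against 101 and 111 CPM in WT GFP-negative cells. The Y-linked genes Ddx3y and Uty, which reflect the share of male fetuses in a pool, summed to 26.5 and 25.9 CPM in Y440X, against 89.1 and 89.9 CPM in WT GFP-negative cells. Both lists differed in GFP-positive cells too. Heat shock genes summed there to 263 and 283 CPM in Y440X, against 59.6 and 51.8 CPM in WT. Y-linked genes summed there to 31.7 and 32.4 CPM in Y440X, against 82.1 and 71.8 CPM in WT. The 2 erythroid genes found of 18 summed to 42.6 and 44.4 CPM in Y440X, against 11.3 and 13.1 CPM in WT GFP-negative cells. The 18 cartilage genes summed to 17126 and 13502 CPM in Y440X, against 57310 and 39152 CPM in WT GFP-positive cells. In GFP-negative cells they summed to 491 and 580.3 CPM in Y440X, against 922 and 819 CPM in WT. There 16 of them were called lower, as were 67.3% of all 739 genes. The part of these differences in the results on the macrophage genes was not tested.

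The macrophage genes were genes of the GFP-negative cells. Mrc1, the mannose receptor that takes up glycoproteins, had the highest read count of the 8 there. It had 1490 reads in forelimb and 1092 in hindlimb of Y440X, against 7228 and 6279 of WT. In GFP-positive cells it had 78 and 41 reads of Y440X, against 59 and 52 of WT. The GFP-negative groups thus stood apart from each other without overlap, while the GFP-positive groups overlapped.

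**Figure D1:**
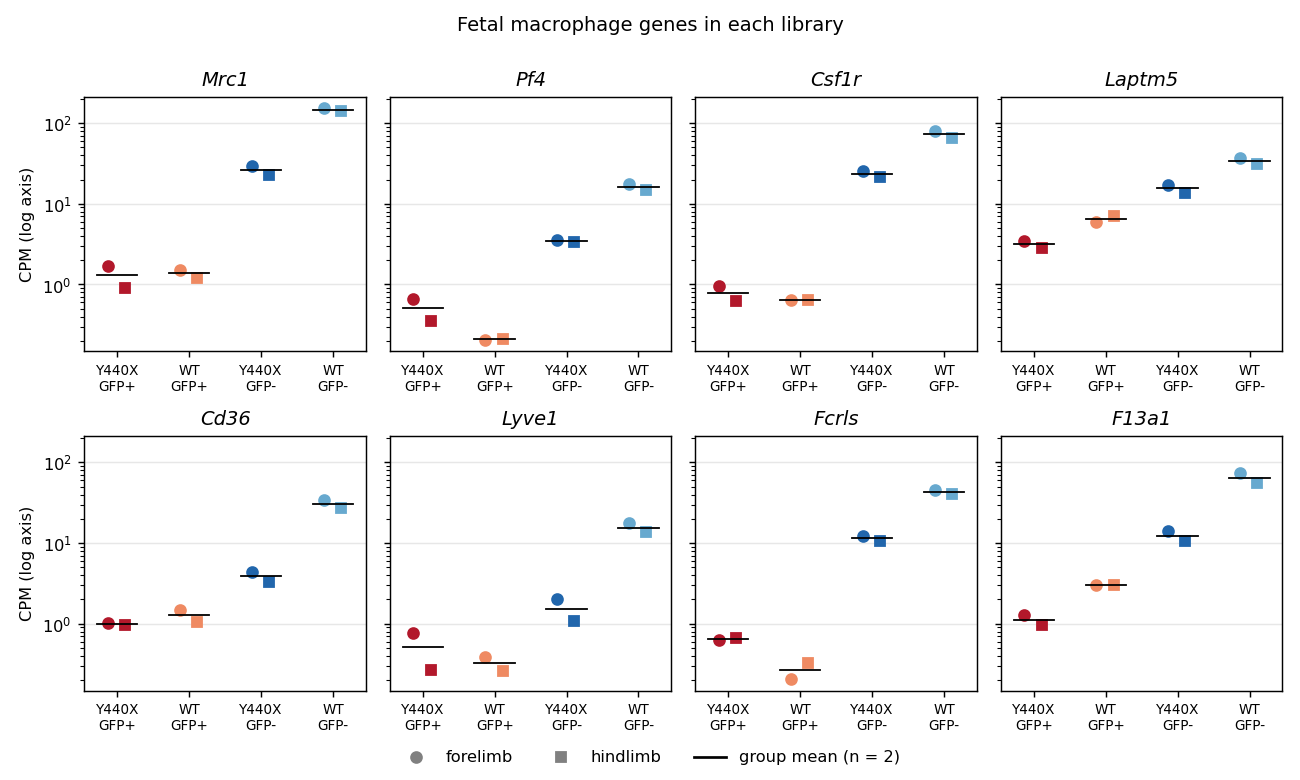
Level of each of the 8 genes in CPM (vertical log axis) in each library, by group from left to right as Y440X GFP-positive, WT GFP-positive, Y440X GFP-negative and WT GFP-negative; circles are forelimb, squares hindlimb and lines the mean of 2. For every gene the WT GFP-negative libraries are highest, with Mrc1 at 153 and 141 CPM, and the 2 GFP-positive groups are lowest.

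The promoters of 6 of the genes (Mrc1, Pf4, Laptm5, Cd36, Fcrls and F13a1) were taken from the RefSeq table of build GRCm38.p6, with 2 start sites for F13a1. Those of Csf1r and Lyve1 were not searched. The 250 bases before each start were searched on both strands for the letters GAGGAA, the core bound by PU.1, the myeloid master regulator encoded by Spi1, and for AGATAA, the site of GATA factors of blood cells; no match of one overlapped a match of the other. PU.1 letters were in 5 of the 7 windows (Mrc1, Pf4, Laptm5, Fcrls and 1 of the 2 of F13a1), and in 23.3% of all 32851 windows of the same length. GATA letters were in the Fcrls window alone of these, and in 9.99% of all windows. A match of this kind is a description of the sequence and shows no binding. The windows of Mrc1 (chr2:14229164-14229413, plus strand), Pf4 (chr5:90772185-90772434, plus strand) and F13a1 (chr13:37050245-37050494, minus strand) are shown because they hold PU.1 letters and lie almost wholly outside the transcribed part of the gene; capitals mark the PU.1 letters or their reverse complement TTCCTC, 5′ to 3′ on the gene's strand.
Mrc1: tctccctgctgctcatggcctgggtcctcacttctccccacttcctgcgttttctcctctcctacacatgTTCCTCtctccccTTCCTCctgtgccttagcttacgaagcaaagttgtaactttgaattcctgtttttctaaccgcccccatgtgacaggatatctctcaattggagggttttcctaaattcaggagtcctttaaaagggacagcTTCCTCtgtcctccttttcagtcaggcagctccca
Pf4: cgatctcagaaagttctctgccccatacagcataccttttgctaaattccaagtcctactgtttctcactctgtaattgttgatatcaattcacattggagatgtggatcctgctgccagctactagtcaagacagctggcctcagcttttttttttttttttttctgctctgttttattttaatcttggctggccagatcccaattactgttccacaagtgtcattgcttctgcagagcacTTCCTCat
F13a1: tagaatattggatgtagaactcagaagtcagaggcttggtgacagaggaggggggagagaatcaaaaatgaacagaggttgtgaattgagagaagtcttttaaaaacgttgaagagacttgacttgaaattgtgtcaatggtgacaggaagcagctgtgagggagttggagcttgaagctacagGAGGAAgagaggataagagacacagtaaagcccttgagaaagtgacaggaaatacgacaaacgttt

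Lyve1, Cd36 and Mrc1 had the lowest log2 fold changes of the 8 between genotypes in GFP-negative cells. Lyve1, also a marker of lymphatic endothelium, had 102 and 52 reads in Y440X forelimb and hindlimb, against 827 and 606 in WT. Its level was 1.54 ± 0.648 CPM in Y440X and 15.6 ± 2.73 CPM in WT (SD, n = 2 each), a log2 fold change of -3.33 ± 0.31 (SE, edgeR). Cd36, a scavenger receptor for lipids that endothelium and fat cells also express, had 224 and 160 reads in Y440X, against 1614 and 1196 in WT, a log2 fold change of -2.98 ± 0.22. Mrc1 was at 25.9 ± 4.58 CPM in Y440X and 147 ± 8.25 CPM in WT, with -2.50 ± 0.17. In the authors' deposited table the false discovery rates (FDR) were 0.0051 for Lyve1, 0.00082 for Cd36 and 0.0017 for Mrc1.

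Csf1r, the growth factor receptor on which most tissue macrophages depend, was lower by less. It had 1286 and 1036 reads in Y440X, against 3798 and 2913 in WT, and its level was 23.3 ± 2.58 CPM in Y440X and 72.9 ± 10.5 CPM in WT, a log2 fold change of -1.64 ± 0.17. Fcrls, an Fc receptor-like protein best known from microglia, had 635 and 503 reads in Y440X, against 2127 and 1815 in WT, with -1.91 ± 0.17. Laptm5, a lysosomal membrane protein shared by most white blood cells, had the smallest difference of the 8, with 878 and 663 reads in Y440X, against 1753 and 1396 in WT, and -1.14 ± 0.19. With TMM scaling computed on the 739 genes, a set selected as changed and mostly lower, Laptm5 was at -0.07 (edgeR adjusted p = 0.73) and the other 7 genes were still called lower. Of the 739 genes 121 were called lower and 211 higher under that scaling. The authors' table gives an FDR of 0.0017 for Csf1r, 0.001 for Fcrls and 0.0052 for Laptm5.

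The secreted products F13a1 and Pf4 lay between Mrc1 and Fcrls. F13a1, the transglutaminase chain of coagulation factor XIII, had 717 and 512 reads in Y440X, against 3490 and 2496 in WT, a log2 fold change of -2.40 ± 0.21 (authors' table, FDR 0.0011). Pf4, a chemokine of platelets and macrophages, had 180 and 163 reads in Y440X, against 828 and 665 in WT, with -2.23 ± 0.20 (authors' table, FDR 0.002). Both genes' groups were apart in both limbs. Of a list of 16 platelet genes, Gp5 and Gp1bb were the others in the tables, and in GFP-negative cells they measured -1.91 ± 0.33 and 0.08 ± 0.31. Gp5 had 12 and 14 reads in Y440X, against 48 and 43 in WT. In WT, Gp1bb was higher in GFP-positive cells, at 8.39 and 7.55 CPM, against 2.31 and 1.57 CPM in GFP-negative cells. The part of platelets in the level of Pf4 was not tested.

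All 8 genes were therefore lower in Y440X GFP-negative cells, in both limbs, with log2 fold changes from -3.33 to -1.14 and a median of -2.31. Over all 739 genes the median was -1.14, and edgeR's quasi-likelihood test called 67.3% lower and 12.7% higher (adjusted p under 0.05), since most listed genes were listed as lower here. The authors chose the genes on these same libraries, so the count of 8 is not independent evidence.

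**Figure D2:**
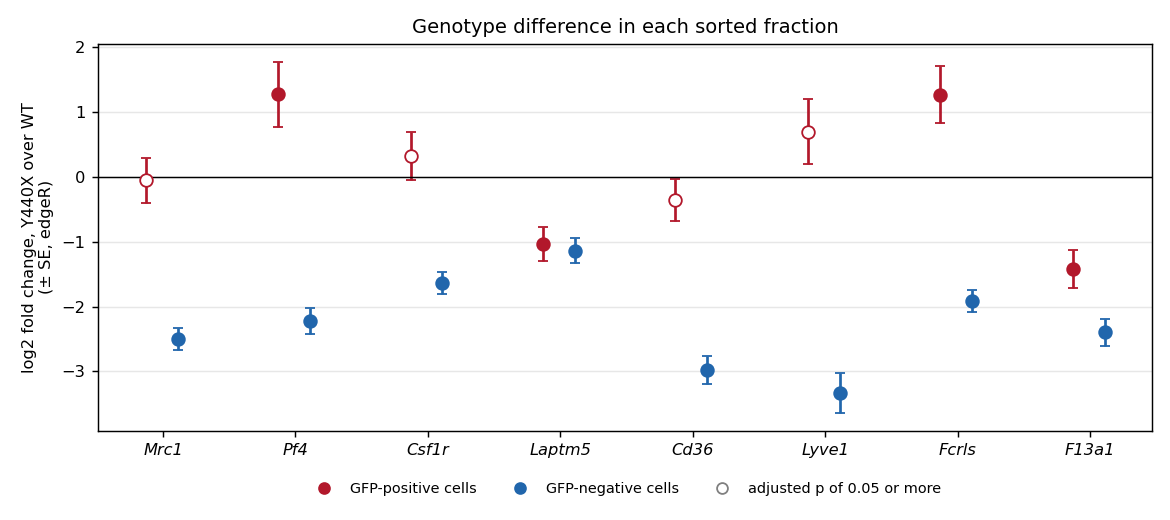
Log2 fold change of Y440X over WT with its SE from edgeR (vertical axis) for each gene in GFP-positive cells (red, left) and GFP-negative cells (blue, right); open circles have an adjusted p of 0.05 or more. In GFP-negative cells all 8 lie between -3.33 and -1.14, and in GFP-positive cells they lie between -1.42 and 1.27.

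Reads per read of another gene within one library do not depend on library size, and they showed that the 8 genes did not fall by a common factor. Per Csf1r read, Mrc1 had 1.16 and 1.05 reads in Y440X GFP-negative forelimb and hindlimb, against 1.90 and 2.16 in WT. The 95% exact binomial intervals, which cover counting error only, ran from 0.97 to 1.25 over the Y440X libraries and from 1.83 to 2.25 over the WT libraries. Per Mrc1 read, Laptm5 had 0.59 and 0.61 reads in Y440X, against 0.24 and 0.22 in WT, and Fcrls had 0.43 and 0.46 in Y440X, against 0.29 and 0.29 in WT. Lyve1 and Cd36 went the other way. Lyve1 was at 0.07 and 0.05 reads per Mrc1 read in Y440X and 0.11 and 0.10 in WT. Cd36 was at 0.15 and 0.15 in Y440X and 0.22 and 0.19 in WT. The difference was smaller for F13a1, with 0.48 and 0.47 reads per Mrc1 read in Y440X and 0.48 and 0.40 in WT, and for Pf4, with 0.12 and 0.15 in Y440X and 0.11 and 0.11 in WT. In sum, the 8 genes took 108 and 86.9 CPM of the Y440X GFP-negative libraries and 458 and 391 CPM of the WT ones. The share of Mrc1 in their reads was 27.0% and 26.1% in Y440X, against 33.4% and 36.2% in WT, and that of Csf1r 23.3% and 24.8% in Y440X, against 17.5% and 16.8% in WT.

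**Figure D3:**
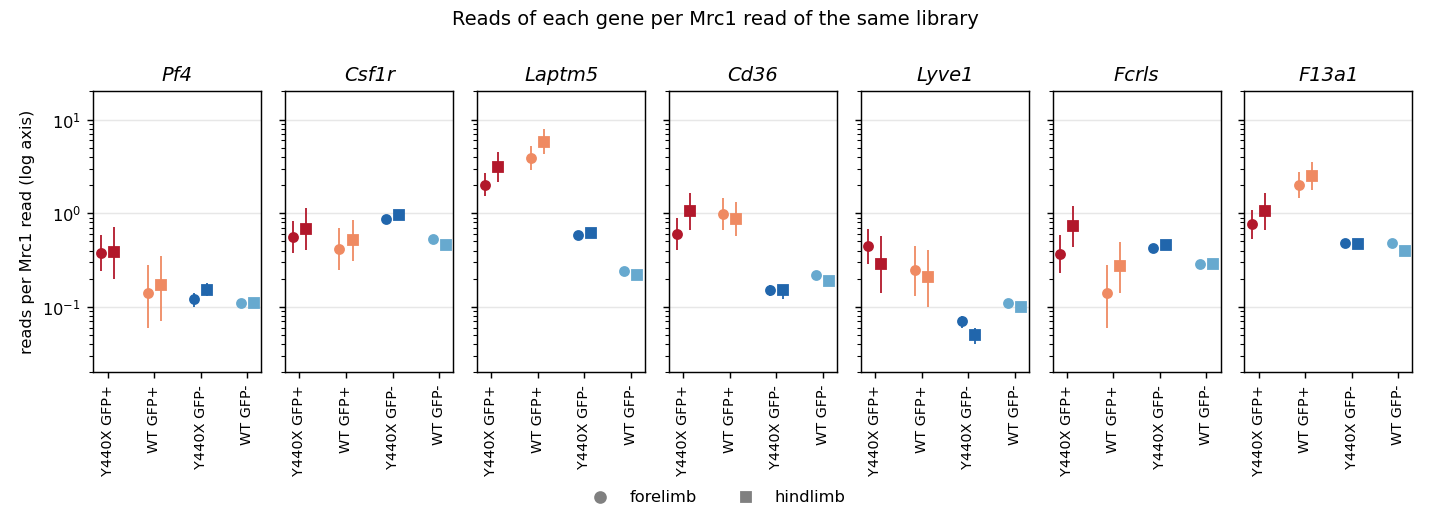
Reads of each of 7 genes per Mrc1 read of the same library (vertical log axis) in the 4 groups, circles forelimb and squares hindlimb, with 95% exact binomial intervals. In GFP-negative cells (blue) Laptm5 and Csf1r are higher in Y440X than in WT, and Lyve1 and Cd36 are lower. Laptm5 and F13a1 stand highest in WT GFP-positive cells, at 3.88 and 5.73 and at 1.98 and 2.48 reads per Mrc1 read.

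Levels of different genes can be compared per gene length. In WT GFP-negative cells the reads per kilobase and 1e+06 reads (RPKM) were 27.7 ± 1.55 for Mrc1, 27.6 ± 3.08 for Pf4, 21.5 ± 1.48 for Fcrls and 18.8 ± 2.70 for Csf1r (SD, n = 2). Below them came F13a1 at 16.5 ± 3.18, Laptm5 at 14.3 ± 1.68, Cd36 at 7.77 ± 1.30 and Lyve1 at 5.97 ± 1.05 RPKM. The SD ranges of neighbours in this order overlapped, except where Pf4 stood above Fcrls and Laptm5 above Cd36. These SDs hold the gap between forelimb and hindlimb, which the genes shared. They therefore do not measure the error of a difference between genes. Both WT GFP-negative libraries had this order, except that Pf4 stood above Mrc1 in forelimb, at 29.8 and 28.7 RPKM. The differences between genes were not tested. In Y440X GFP-negative cells Laptm5, Csf1r, Pf4, Fcrls and Mrc1 lay close together, at 6.46 ± 1.01, 6.03 ± 0.666, 5.88 ± 0.165, 5.75 ± 0.704 and 4.88 ± 0.862 RPKM. F13a1 followed at 3.14 ± 0.612, and Cd36 and Lyve1 were last at 0.982 ± 0.191 and 0.590 ± 0.249 RPKM.

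Of 64 further genes on a macrophage list, 37 were in the tables, and the rest have no value here. All 37 are in the authors' list of genes lower in Y440X GFP-negative cells, so their direction was fixed by that listing and is a description, as is the 67.3% of all genes called lower. They had log2 fold changes from -3.55 (Cxcl2, a neutrophil-attracting chemokine) to -1.09 (Lgmn, a lysosomal protease). Their median was -1.75, with -1.14 over all genes. The macrophage adhesion receptor Adgre1, known as F4/80, was at -2.04 ± 0.18, the complement gene C1qb at -1.77 ± 0.19, the fractalkine receptor Cx3cr1 at -1.52 ± 0.17, the regulator Spi1 at -1.44 ± 0.22 and Ptprc, the pan-leukocyte antigen CD45, at -1.14 ± 0.19. Lyve1 and Cd36 had 1 of the 37 below them (Cxcl2), Mrc1 had 3, F13a1 5, Pf4 6, Fcrls 9, Csf1r 20 and Laptm5 34. The scavenger receptor Stab1, also of endothelium, was at -1.56 ± 0.14.

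**Figure D4:**
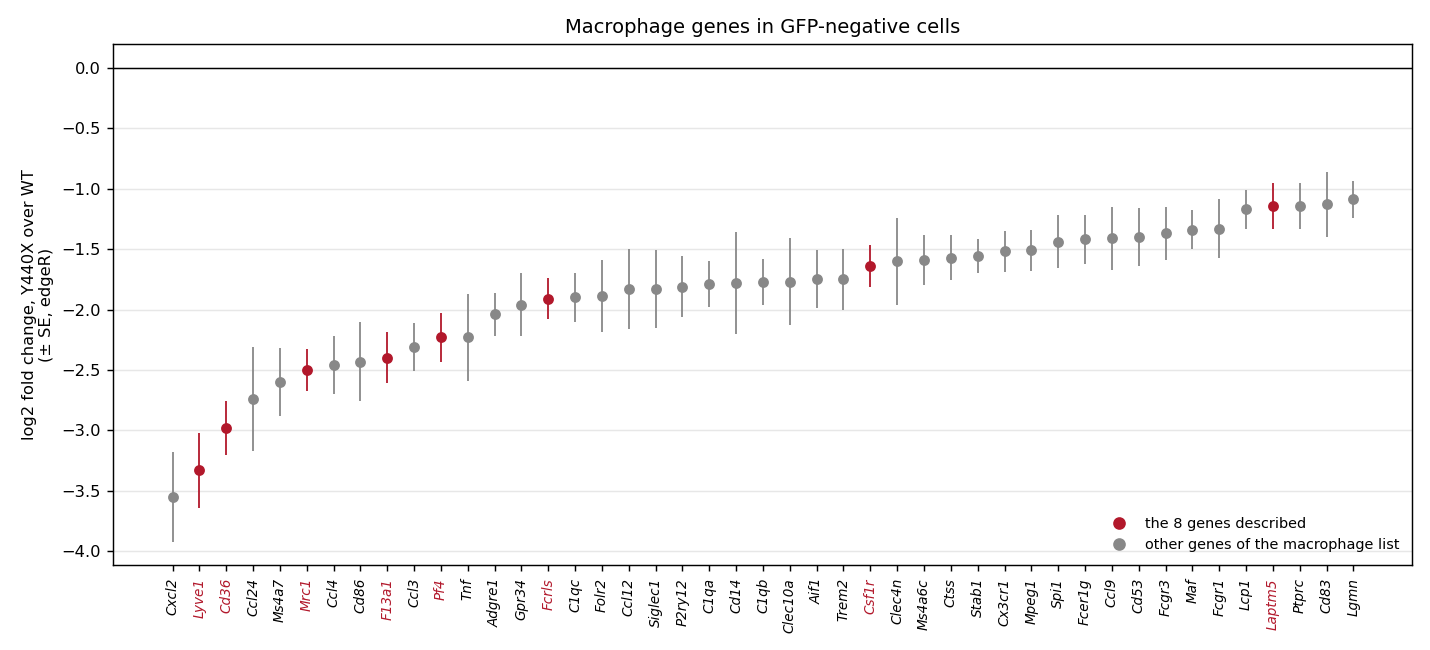
Log2 fold change of Y440X over WT in GFP-negative cells with its SE (vertical axis) for the 45 genes of the macrophage list found in the tables, ordered from lowest to highest; the 8 genes described are red and the other 37 gray. Lyve1, Cd36, Mrc1, F13a1 and Pf4 lie among the 12 lowest and Laptm5 among the 4 highest.

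The next question was how far the GFP gate kept these genes out. In WT, all 8 genes were lower in GFP-positive than in GFP-negative cells, while edgeR called 80.6% of all genes tested, 50.2% as lower and 30.4% as higher. The log2 ratios ranged from -7.29 ± 0.37 for Fcrls to -2.40 ± 0.24 for Laptm5 with a median of -5.92, while over all genes it was -0.82, and the largest edgeR adjusted p of the 8 was 5.8e-09. The ratio uses the WT GFP-negative levels on which all 8 were listed, so these calls are not independent of that listing.

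In WT 5 of the genes had a low ratio. The GFP-positive level of Mrc1 was 1.00% of the GFP-negative level in forelimb and 0.866% in hindlimb. For Csf1r it was 0.806% and 0.969%, for Pf4 1.18% and 1.41%, for Fcrls 0.461% and 0.806%, and for Lyve1 2.22% and 1.90%. These rested on few GFP-positive reads: 25 and 27 for Csf1r, 8 and 9 for Pf4, 8 and 14 for Fcrls, and 15 and 11 for Lyve1. The 95% intervals of Mrc1, Csf1r, Pf4 and Fcrls overlapped in both limbs, between 0.199% and 2.70%.

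The other 3 genes kept a higher share. Laptm5 in GFP-positive cells had 229 and 298 reads, 16.0% and 22.3% of the GFP-negative level, with intervals of 13.9% to 18.4% and 19.6% to 25.3%. F13a1 had 117 and 129 reads, 4.11% and 5.40%, and Cd36 had 58 and 45 reads, 4.40% and 3.93%. All of their intervals lay above those of Mrc1 in both limbs. Lyve1 was not set apart in this way, with intervals of 1.24% to 3.69% in forelimb and 0.942% to 3.42% in hindlimb. These overlapped those of Cd36 in both limbs, at 3.33% to 5.72% and 2.85% to 5.30%. They also overlapped that of F13a1 in forelimb, at 3.39% to 4.94%. Per Mrc1 read, Laptm5 had 3.88 and 5.73 reads in WT GFP-positive cells, against 0.24 and 0.22 in WT GFP-negative cells, and F13a1 had 1.98 and 2.48 in the GFP-positive cells, against 0.48 and 0.40 in the GFP-negative cells. Of the other 37 macrophage genes, 5 had a WT share above 10% in both limbs. They were Lcp1, an actin bundling protein of white blood cells, at 15.8% and 14.5%, the folate receptor Folr2 at 24.2% and 29.2%, Lgmn at 51.2% and 59.9%, the transcription factor Maf at 71.3% and 73.7%, and the activation antigen Cd83 at 75.1% and 106%.

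**Figure D5:**
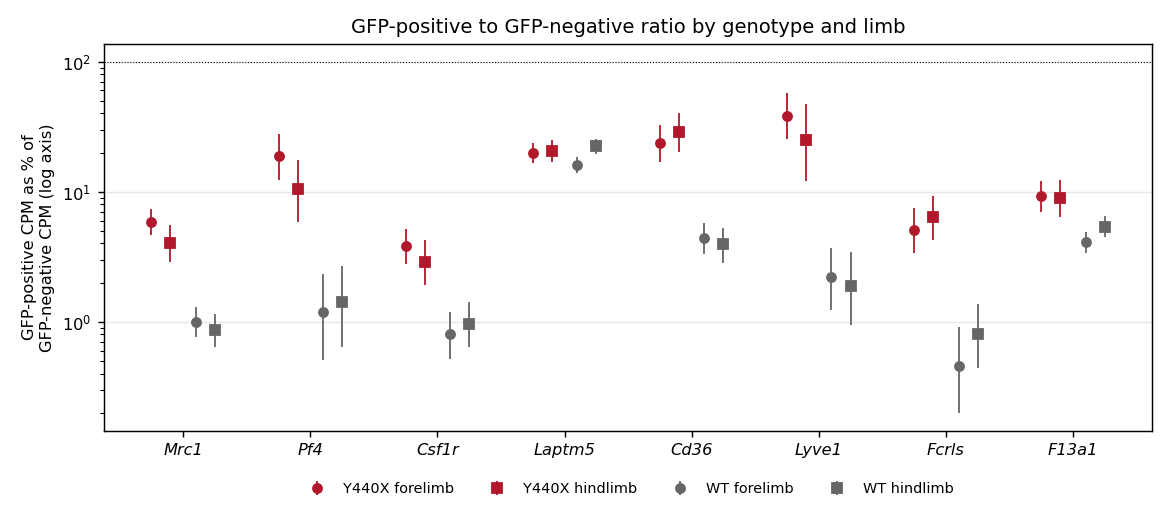
GFP-positive level as a percentage of the GFP-negative level (vertical log axis) for each gene, in Y440X (red, left) and WT (gray, right), forelimb as circles and hindlimb as squares, with 95% exact intervals for counting error. In Y440X the percentages of 7 genes lie above those of WT in both limbs, and those of Laptm5 overlap between genotypes, at 19.9% and 20.7% in Y440X and 16.0% and 22.3% in WT.

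In Y440X, all 8 genes were again lower in GFP-positive cells, while 68.1% of all genes were called, 39.8% as lower and 28.3% as higher. They had log2 ratios from -4.87 ± 0.29 for Csf1r to -1.57 ± 0.46 for Lyve1 and a median of -3.10. The median over all genes was -0.24. These ratios also use GFP-negative levels on which the genes were listed. The GFP-positive level of Mrc1 was 5.87% of the GFP-negative level in forelimb and 4.03% in hindlimb, that of Csf1r 3.84% and 2.90%, and that of Fcrls 5.12% and 6.40%. F13a1 was at 9.23% and 9.01%, Pf4 at 18.7% and 10.5%, Laptm5 at 19.9% and 20.7%, Cd36 at 23.5% and 28.8%, and Lyve1 at 38.5% and 24.8%. For Lyve1 the counts behind these were 35 and 12 reads in GFP-positive cells, against 102 and 52 in GFP-negative cells, and its 95% intervals overlapped, at 25.4% to 57.0% in forelimb and with an upper bound of 47.0% in hindlimb. Its edgeR adjusted p was 0.0086, and 0.18 without the Y440X GFP-negative forelimb library, which left 1 library in that group and assumed that it varies like the others (log2 ratio -1.05). Over the 4 fits without 1 library its log2 ratio ran from -2.51, without the Y440X GFP-positive forelimb library, to -1.0, without the Y440X GFP-positive hindlimb library.

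The ratio differed between genotypes for 7 of the 8 genes (interaction of fraction and genotype in edgeR), higher in Y440X each time. Of all genes 49.9% were called, 31.8% with a higher and 18.1% with a lower ratio in Y440X. The difference of the log2 ratios, Y440X minus WT, was 4.02 ± 0.65 for Lyve1, 3.50 ± 0.50 for Pf4, 3.17 ± 0.41 for Fcrls, 2.63 ± 0.38 for Cd36, 2.44 ± 0.39 for Mrc1 and 1.95 ± 0.38 for Csf1r, with adjusted p between 0.00051 and 0.0017. For Lyve1 it was 3.07 without the Y440X GFP-positive forelimb library and 4.58 without the Y440X GFP-positive hindlimb library, and the call held in both fits. F13a1 differed by 0.97 ± 0.35 (edgeR adjusted p = 0.036), a call lost in 5 of the 8 fits without 1 library, with adjusted p up to 0.16, and under TMM over the listed genes (0.35, adjusted p = 0.40). Laptm5 differed by 0.10 ± 0.31 (edgeR adjusted p = 0.79), which was -0.52 under that scaling. This contrast contains the GFP-negative difference on which the genes were listed, so it is not independent of the listing.

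In GFP-positive cells edgeR called 2 genes lower and 2 higher in Y440X, while 55.8% of all genes were called, 40.1% as lower and 15.7% as higher. Under TMM over the listed genes 4 of the 8 were called higher and 1 lower, while 223 of all 739 genes were called higher and 162 lower. F13a1 had 59 and 43 reads in Y440X forelimb and hindlimb, against 117 and 129 in WT, a log2 fold change of -1.42 ± 0.29 (adjusted p = 0.00033). Laptm5 had 156 and 128 reads in Y440X, against 229 and 298 in WT, and -1.04 ± 0.26 (edgeR adjusted p = 0.0017). The call of Laptm5 was lost without the WT hindlimb library (-0.92, adjusted p = 0.059) and under TMM over the listed genes (-0.39). These 2 genes were those with the most reads in WT GFP-positive cells. With Fcrls they are the genes the authors listed on these libraries, so their calls are not independent of that listing.

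Fcrls and Pf4 were the genes called higher there, both from few reads. The authors listed Fcrls but not Pf4 as higher in this fraction. The adjusted p here is over 739 genes selected as changed, 55.8% of them called, and not over all expressed genes. Fcrls had 29 and 30 reads in Y440X, against 8 and 14 in WT, a log2 fold change of 1.26 ± 0.44 (edgeR adjusted p = 0.015). Pf4 had 30 and 16 reads in Y440X, against 8 and 9 in WT, and 1.27 ± 0.50 (edgeR adjusted p = 0.03). Neither passed in DESeq2 (adjusted p = 0.12 for Fcrls and 0.17 for Pf4). Fcrls also lost its call without the WT forelimb library (0.98), and Pf4 without either WT library (1.25 and 1.28) or without the Y440X forelimb library (0.76).

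The remaining 4 genes did not pass in GFP-positive cells with the effective sizes. Csf1r had 44 and 28 reads in Y440X, against 25 and 27 in WT, with a log2 fold change of 0.31 ± 0.37, and was called higher under TMM over the listed genes (0.97, edgeR adjusted p = 0.023). Cd36 had 47 and 43 reads in Y440X, against 58 and 45 in WT, with -0.36 ± 0.32, which was 0.31 under that scaling and not called. Mrc1 measured -0.06 ± 0.34, which was 0.59 under that scaling and not called. Lyve1, with 35 and 12 reads in Y440X and 15 and 11 in WT, measured 0.69 ± 0.50. It was called higher under TMM (1.34, edgeR adjusted p = 0.0073) and without the Y440X hindlimb library (1.25, edgeR adjusted p = 0.026), and was at -0.26 without the Y440X forelimb library. These SEs leave room for changes in either direction for Mrc1, Csf1r and Cd36, so the data do not show that the levels were alike. Of the other 37 macrophage genes found, 3 were called higher (C1qb, Cxcl2 and Tnf, at 0.94, 0.94 and 1.18) and 2 lower (C1qc and Lcp1, at -0.87 and -0.94). Of the 16 endothelial genes 8 were called higher and 0 lower in Y440X GFP-positive cells. Of all genes 15.7% were called higher and 40.1% lower in this fraction. The forelimb sum of the 16 there was 30.5 CPM in Y440X, against 19.8 CPM in WT. In Y440X GFP-negative cells 16 were called lower, as were 67.3% of all genes. The authors listed 3 of the 16 as higher in GFP-positive cells and 14 as lower in GFP-negative cells. Those calls are not independent of the listing. The part of these endothelial differences in the levels of Cd36 and Lyve1, which endothelium can express, was not tested.

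With the effective sizes all 8 had a higher GFP-negative level in forelimb than in hindlimb of both genotypes. For Mrc1 the forelimb level was 29.2 CPM, against 22.7 CPM in hindlimb, in Y440X, and 153 CPM, against 141 CPM in hindlimb, in WT. For Lyve1 the forelimb level was 0.766 RPKM, against 0.414 RPKM in hindlimb, in Y440X, and 6.71 RPKM, against 5.23 RPKM in hindlimb, in WT. The share of all genes with this order was not computed. In GFP-positive cells the order did not hold for all 8. Laptm5 of WT was at 5.93 CPM in forelimb, against 7.01 CPM in hindlimb, and Fcrls of WT at 0.207 CPM, against 0.329 CPM. Over all 8 libraries the log2 fold change of forelimb over hindlimb had a median of 0.30 for the 8 genes and 0.12 for all genes, and was largest for Lyve1 at 0.71 ± 0.20 (edgeR adjusted p = 0.059). edgeR called 0 of the 8, while 5.14% of all genes were called, 4.33% as higher and 0.812% as lower in forelimb, and DESeq2 and limma also called 0. Before adjustment 4 of the 8 had p under 0.05 in each of the 3 tools, and the share of all genes under that unadjusted threshold was not computed. Fcrls, at 0.10 ± 0.15, was at -0.02 under TMM over the listed genes.

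Genes outside the 8 with the most similar profile were sought over the 8 libraries by Pearson correlation of log2(CPM + 1) with the mean of the 8, among 533 genes with a mean of at least 1 CPM. The 6 highest were Trem2, Evi2a, Plek, Slc11a1, C3ar1 and Reps2, with r between 0.997 and 0.999. The 8 genes themselves had r between 0.951 (Lyve1) and 0.997 (Mrc1) with their own mean. The points share libraries and fall into 4 groups that differ mainly in the height of the WT GFP-negative libraries, so r describes that pattern. Trem2, a lipid-sensing receptor of macrophages, was at 1.86 and 1.60 CPM in Y440X GFP-negative cells, against 6.24 and 5.40 CPM in WT. Reps2 was at 13.6 and 11.2 CPM in Y440X GFP-negative cells, against 28.4 and 26.7 CPM in WT, and kept 5.36 and 4.04 CPM in Y440X GFP-positive cells, against 5.41 and 4.63 CPM in WT.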

How the data were processed

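RNA-seq libraries of sorted limb bud cells were analysed in 4 groups of 2. Per the submitters' processing notes the tools were featureCounts and edgeR 3.36.0, with GRCm38 and mm10 as builds; no aligner was named. The file headers label the library columns as RPKM, yet what the authors deposited there is a read count: 100% are whole numbers, and counts over CPM gave 1 library size whatever the gene length (median 43.9 in units of 1e+06 reads, 5th to 95th percentile 41.7 to 46.4). The authors' columns hold a log2 fold change, a log2 average CPM, an F statistic (a score), a p-value, an FDR and a gene length in bases (other), per the file headers. There were 0 sample columns left unused.

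Effective library sizes came from a least squares fit to the deposited log2 fold changes and logCPM of well counted genes (200 counts or more); the median absolute residual of the log2 fold changes was 0.0003. edgeR 4.0.16 (R 4.3.3) ran its quasi-likelihood test on all 739 genes with these sizes: 2 libraries against 2 for each genotype or fraction contrast, and all 8 for the interaction and for limb. Two-sided p-values had Benjamini-Hochberg adjustment across the 739 genes, threshold 0.05; SEs are Wald errors. Alternatives were TMM, DESeq2 1.42.0, limma 3.58.1 on log2(CPM + 1), a filter (10 reads in 2 libraries), 1 fit of all 8 libraries, a limb block, and each library left out. The procedure was tested on simulated data. A library at 1 CPM holds 38.6 to 51.1 reads. Intervals cover counting error only. RPKM used the deposited length.

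The 8 genes and the lists were chosen with earlier results of these data known. By rule the text names the 8 genes, macrophage list genes in the tables, the highest genes of other lists and the 6 most similar profiles. The replicate numbers are limbs. Forelimb minus hindlimb differences correlated across 541 genes between genotypes (r = 0.49 for the GFP-positive and 0.48 for the GFP-negative fraction) and between fractions (0.22 in Y440X and 0.12 in WT).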

Additional observations from a re-analysis of the deposited data

Results flagged for a closer look

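The ratio of GFP-positive to GFP-negative level differed between genotypes by the interaction test for 7 of the 8 genes, while 49.9% of all genes were called and 31.8% with a higher ratio in Y440X. The differences of the log2 ratios, Y440X minus WT, were 4.02 for Lyve1, 3.50 for Pf4, 3.17 for Fcrls, 2.63 for Cd36, 2.44 for Mrc1, 1.95 for Csf1r and 0.97 for F13a1. The call of F13a1 was lost in 5 of the 8 fits without 1 library and under TMM over the listed genes (0.35). For Mrc1, Csf1r, Cd36 and Lyve1 the GFP-positive levels did not pass between genotypes with the effective sizes (Csf1r and Lyve1 were called higher under TMM), while the GFP-negative levels, on which the genes were listed, were lower in Y440X. Laptm5, the gene with the highest GFP-positive share in WT, was the 1 gene without such a difference (0.10).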

How the results depend on the processing

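Of 520 values recomputed for single genes, 487 kept their direction and side of the threshold, 16 lost and 3 gained a call, and 14 changed sign, none of them called before or after. In GFP-negative cells all 8 genes were called without any 1 library and with every alternative except TMM over the listed genes, where Laptm5 was lost. That scaling shifted the median log2 fold change over the 739 genes by 1.07 (GFP-negative) and 0.65 (GFP-positive), by 0.34 for the fraction ratio in WT and by -0.62 for the interaction. With it 332 of 739 genes were called in GFP-negative cells, 63.6% of them higher, against 15.9% without. In GFP-positive cells 385 of 739 were called, 57.9% of them higher, against 28.2% without. Of the called genes 40.7% were higher in the interaction, against 63.7%, and between limbs 68.8% were higher in forelimb, against 84.2%. In GFP-positive cells 4 of the 8 genes were called, 2 higher and 2 lower; 5 were called under TMM (4 higher, 1 lower, with Csf1r at 0.97 and Lyve1 at 1.34 gained and Laptm5 at -0.39 lost), 2 in DESeq2 and between 2 and 5 without 1 library, while calls over all genes ranged from 228 to 385 (412 with all libraries). Genes not called there changed sign: Mrc1 to 0.59 under TMM and between -0.59 and 0.32 without 1 library, Cd36 to 0.31 under TMM, Csf1r between -0.04 and 0.59, and Lyve1 between -0.26 and 1.25. In the interaction Laptm5 was at -0.52 under TMM and between -0.05 and 0.27 without 1 library. Between limbs Fcrls was at -0.02 under TMM and between -0.0033 and 0.15 without 1 library, and limma called 2 genes of 739, against 38 in edgeR, and between 1 and 48 without 1 library. Limb as a replicate block left the calls at 8 of the 8 genes in GFP-negative cells, 4 in GFP-positive cells, 8 in each fraction ratio and 7 in the interaction, and changed no other call of the 8. The causes were not tested. GFP-positive counts of 8 to 35 reads limit what can be said of Pf4, Lyve1 and Fcrls there.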
